A study of Homo sapiens with 4 samples.

Results

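The genes described here encode the proteins of the cytosolic ribosome. They were chosen by symbol alone: RPL or RPS followed by a number, with an optional A, X or L ending, together with RPLP0, RPLP1, RPLP2 and RPSA. The rule found 84 of the 15562 genes with a value, 52 of the large subunit (symbols beginning RPL) and 32 of the small subunit (symbols beginning RPS). FAU, which encodes a ribosomal protein fused to a ubiquitin-like protein, falls outside the symbol rule and is given separately. H1975, an established human lung adenocarcinoma cell line labelled WT, was grown for 24 h in hypoxia (1% O2, 5% CO2 and 94% N2) or in normoxia, for which the labels give 5% CO2 and no oxygen share. Each condition was measured by 1 stranded mRNA library, so there is no spread between replicates and no difference below was tested between conditions.

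A cytosolic ribosome is built from a small subunit, which binds and reads the mRNA, and a large subunit, which joins the amino acids and threads the new protein through an exit tunnel. Nearly every ribosomal protein is needed in the same number of copies, and surplus protein is degraded. Most of their mRNAs begin with a terminal oligopyrimidine (TOP) tract, a run of C and T bases at the first transcribed bases. LARP1 and mTORC1 signalling control the translation of TOP mRNAs through that tract, so the amount of mRNA and the amount of protein made from it can part.

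The tract can be seen in the annotated gene starts. The windows below show 20 bases before and 10 bases from the first transcribed base in the RefSeq annotation of GRCh38.p14, read 5′ to 3′ on the strand of the gene. Capitals mark the longest run of C and T that touches the 5 bases on either side of the start. The genes were picked because RPL41, RPS27 and RPL39 had values above 0, because RPS21, RPL24 and RPL28 had values below 0, and because the paralog RPS27L can be set beside its parent gene RPS27.
RPL41: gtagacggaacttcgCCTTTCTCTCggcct
RPS27: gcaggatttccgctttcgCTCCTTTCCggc
RPS27L: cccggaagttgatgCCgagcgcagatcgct
RPL39: gctcgttcttccgccagCTTCCCTCCTCTT
RPS21: tgccgggtgactagctgCTTCCTTTCTCTC
RPL24: gtctcttcccatgaTTCTCTCTTTCTTTTC
RPL28: tcgcctcgcccctcgCCTTCCTCTTTCCgt

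On the plus strand lie the windows of RPL41 (chr12:56116613-56116642), RPS27 (chr1:153990742-153990771), RPS21 (chr20:62387083-62387112) and RPL28 (chr19:55385912-55385941). On the minus strand lie those of RPS27L (chr15:63157468-63157497), RPL39 (chrX:119791621-119791650) and RPL24 (chr3:101686709-101686738). RPL39 has a run of 22 bases and RPS21 one of 15 bases, and both go on past the window shown. The runs of RPL41, RPL24 and RPL28 are 10, 16 and 13 bases long, and that of RPS27 is 9. The paralog RPS27L has a run of 2 bases at this position. So do RPS29 and RPS15, which are not paralogs.

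A promoter sequence was matched for 67 of the 84 members. The table lists more than 1 start for 11 of them, of which the first was used, and for 63 of the 67 that start is the 5′ end of the gene's span. A run of 6 or more C and T bases at the start was found in 50 of these 67 (74.6%), in 5972 of all 27305 promoters in the table (21.9%) and in 12 of 69 promoters of mitochondrial ribosomal proteins (17.4%). The letters CTTTCC, searched from 30 bases before to 50 bases after the start, were present on either strand in 23 members (34.3%) and in 7.12% of all promoters, and in every one of these 23 members they lay on the strand of the gene. The letters TATAAA in the same window were present on either strand in 4 members (5.97%) and in 3.44% of all promoters. A match describes letters at an annotated start, which may not be the start that H1975 uses.

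The RNA-seq libraries held 18943320 counts in hypoxia and 17643836 in normoxia, as the authors' counts per gene. Counts were scaled by the trimmed mean of M values (TMM), and a gene was kept when it reached 1 scaled CPM (counts scaled to a common depth) in at least 1 library, which left 12725 genes. Of the 9 epithelial and lung markers, 8 had 100 or more counts in hypoxia and 7 in normoxia, with KRT8 at 63715 and 63886, while SFTPB had 14 in each. Of the 4 endothelial markers, 3 had a row, none above 57 counts in hypoxia and 73 in normoxia. The 5 fibroblast markers summed to 113 CPM in hypoxia and 108 CPM in normoxia, most of it COL1A1, and the leukocyte markers to 238 and 244 CPM, most of it CD68. The part of other cell types in the results was not tested.

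Ribosomal protein mRNAs made up 6.30% of all counts in hypoxia (95% Clopper-Pearson interval 6.29 to 6.31) and 6.51% in normoxia (6.49 to 6.52). The large subunit held 3.71% in hypoxia and 3.82% in normoxia, and the small subunit 2.59% and 2.69%. Per gene length the share was larger, since the genes are short: 14.9% of the summed FPKM in hypoxia and 15.1% in normoxia. FPKM are the authors' values per kilobase of gene and per library depth. Among the 100 genes with the highest FPKM, 42 were ribosomal proteins in each library. All intervals cover counting error only, and the labels name no molecular identifiers that would tell copies of a molecule apart.

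The levels of single members differed far more than the conditions did. RPS2, a protein at the entry of the mRNA channel, had the highest level per length with 4673 FPKM in hypoxia and 5012 FPKM in normoxia, and alone held 7.01% and 7.28% of all ribosomal protein counts. RPS18 followed with 2614 FPKM in hypoxia and 2675 FPKM in normoxia. The median member had 479.6 FPKM in hypoxia and 489 FPKM in normoxia, and the interquartile range ran between 242 and 1054 FPKM in hypoxia and between 239 and 1094 FPKM in normoxia. The order of members by FPKM was nearly the same in both libraries: 77 of 84 moved by at most 2 places, and the largest shift, of 4 places, was that of RPS27, which ranked 11 in hypoxia and 15 in normoxia. An FPKM depends on the gene length used, which for some members is long (7472 bases for RPS29 and 7573 for RPL37), and so understates the level where the main transcript is short.

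**Figure D1:**
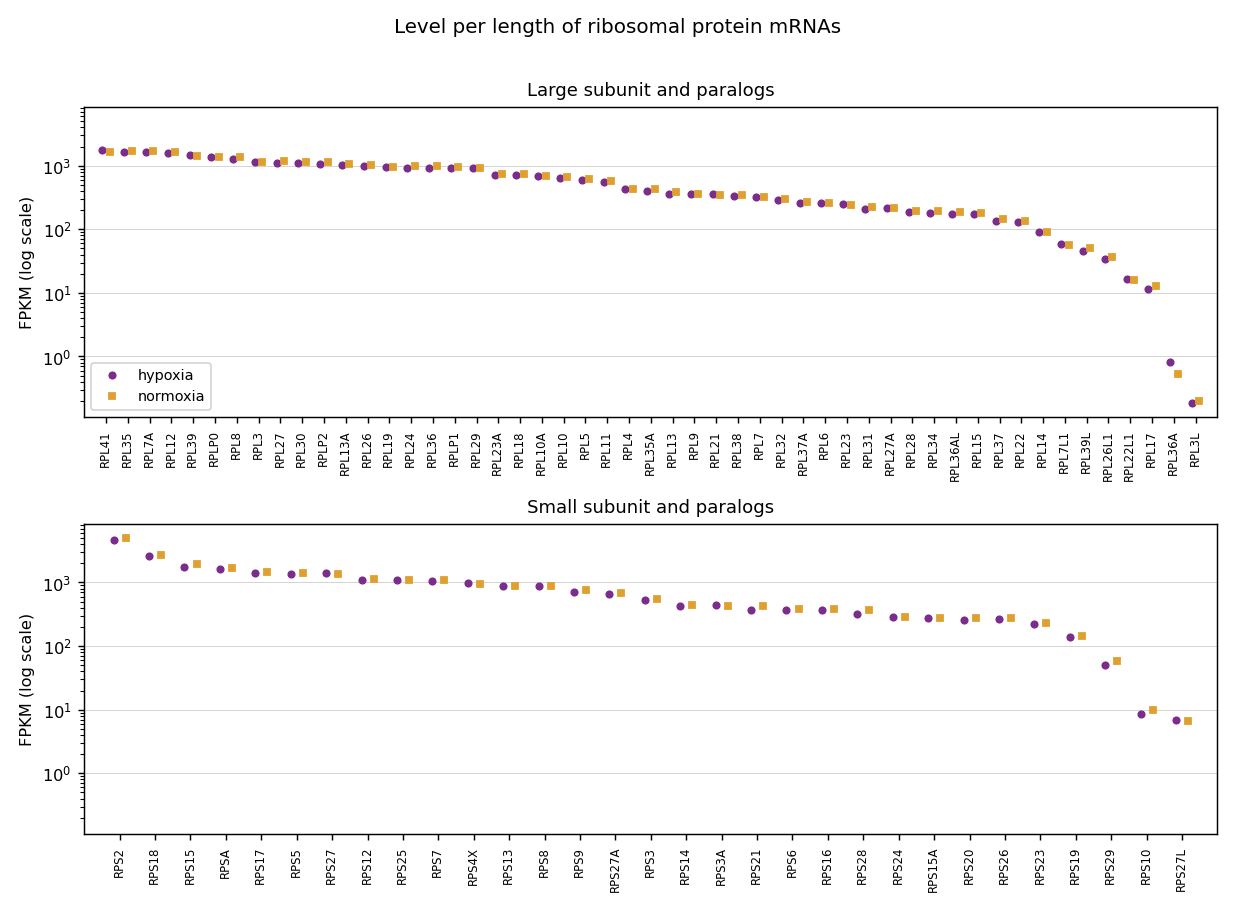
Level of 82 of the 84 ribosomal protein mRNAs as FPKM on a log axis, with hypoxia as circles and normoxia as squares, in descending order within the large subunit (top) and the small subunit (bottom). RPS2 stands highest at 4673 and 5012 FPKM, RPS18 follows at 2614 and 2675 FPKM, and RPL36A and RPL3L lie below 1.

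A few members were read far below the rest. RPL36A had 12 counts in hypoxia and 7 in normoxia, RPS10 132 and 143, and RPL17 227 and 239, although each encodes a core protein of the ribosome. These are the 3 members for which the RefSeq table lists a readthrough gene that starts with their symbol and overlaps them (RPL36A-HNRNPH2, RPS10-NUDT3 and RPL17-C18orf32). The sources used here do not give how reads shared by overlapping genes were counted, so the levels of these 3 are uncertain. RPL36A, at chromosome X 101391011 to 101396155 in GRCh38.p14, and the muscle paralog RPL3L, with 9 counts in each library, were the 2 members that did not pass the filter. RPL36AL, a near copy of RPL36A on chromosome 14, had 173 FPKM in hypoxia and 189 FPKM in normoxia. By symbol the RefSeq table holds 1988 pseudogenes of members, at least 1 for 78 of the 84, with the most for RPL21 (137), and reads that match a gene and its copies may have been lost or shared for any member.

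Between the conditions the members moved little, and more of them lay slightly lower than higher in hypoxia. The median log2 ratio of hypoxia over normoxia was -0.039 over the 82 members that passed the filter, beside a median of 0.0032 over all 12725 genes. Of the 82, 63 had a ratio below 0 and 19 above, 72 lay within 0.1 of 0 and 80 within 0.2. None was 2-fold higher or lower with an interval that excluded no change, a rule that called 0.472% of all genes higher and 0.44% lower, and 0.0522% of 3831 genes of similar count and length higher and 0 lower. The 95% counting interval lay wholly below 0 for 38 members (46.3%) and wholly above 0 for 6 (7.32%), and held 0 for 38. The same was true of 14% (below) and 15% (above) of all genes kept, whose median gene has fewer counts and a wider interval. With a trend of the ratio with gene length removed, as described for the length classes, the direction turned: 11 members lay wholly below 0 and 27 wholly above, with a median of 0.016. That trend is a straight line fitted over genes of all kinds, and the ratios of the members themselves did not follow the gene length implied by FPKM.

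**Figure D2:**
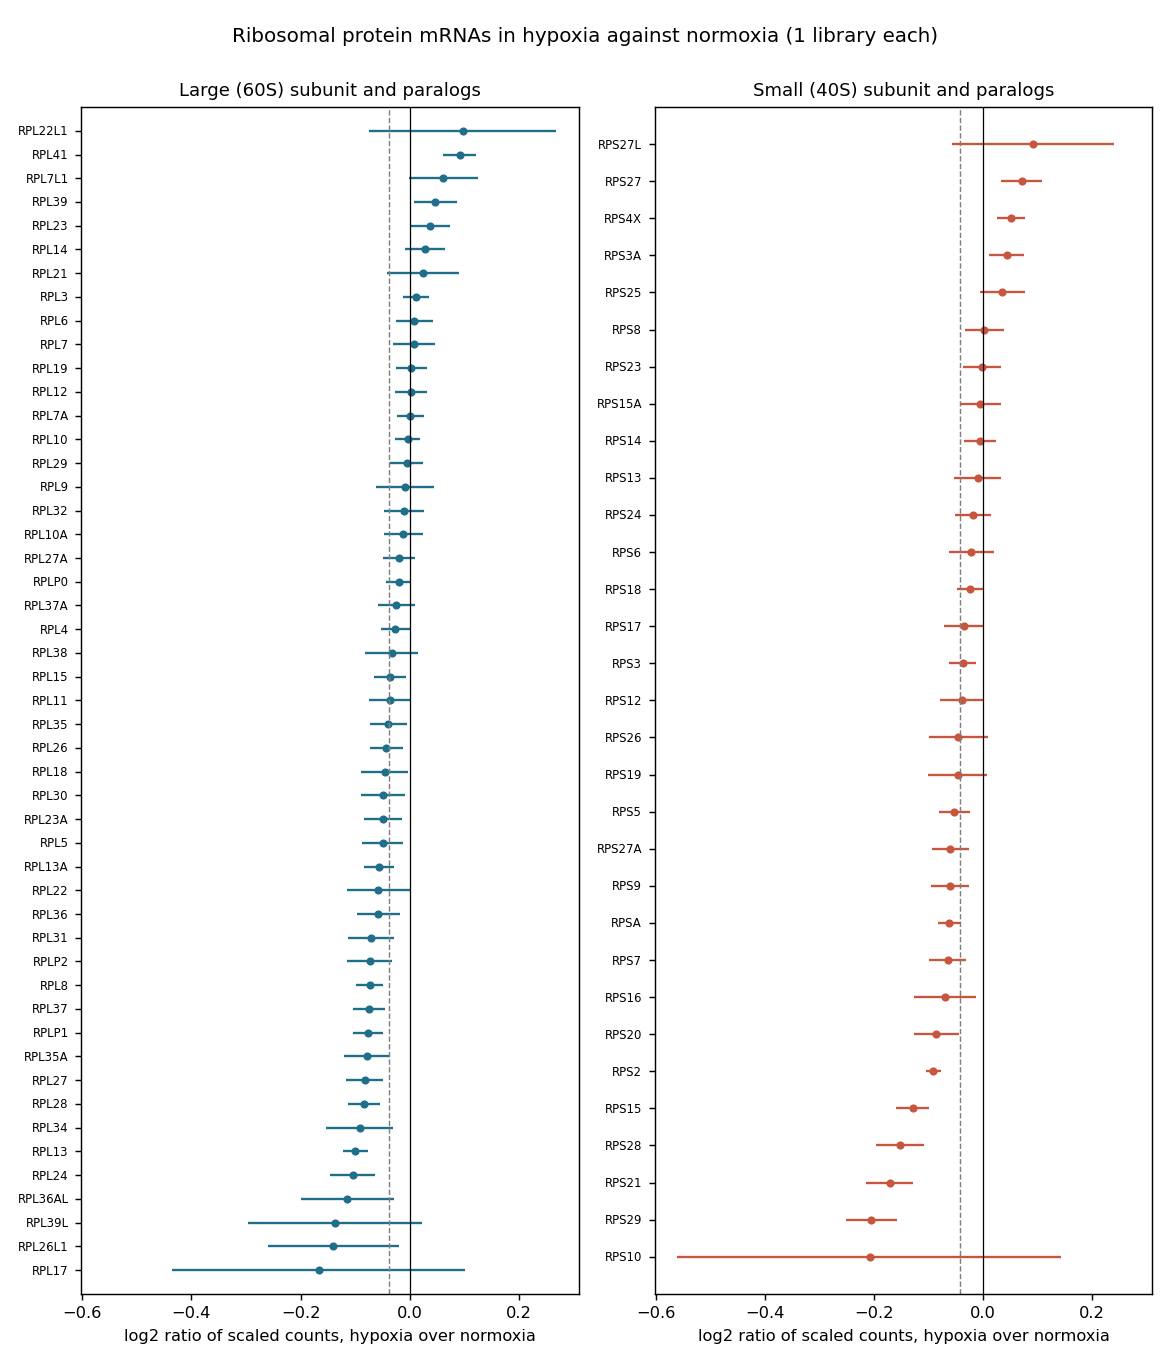
Log2 ratio of scaled counts, hypoxia over normoxia, for 80 of the 82 ribosomal protein genes kept, with bars for the exact 95% counting interval and a dashed line at the median of all genes kept of each subunit. Most points lie between -0.1 and 0.1, RPL41 and RPS27 stand above 0 and RPS29, RPS21, RPS28 and RPS15 below.

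Large and small subunit genes lay at nearly the same place. Over 50 genes of the large subunit the median log2 ratio was -0.038, with 24 intervals wholly below 0 and 3 wholly above. Over 32 genes of the small subunit it was -0.042, with 14 below and 3 above. The medians differed by 0.0040 (large minus small). Summed counts of the large subunit were 1.43 times those of the small subunit in hypoxia and 1.42 times in normoxia, a log2 difference of 0.014 (counting interval 0.0060 to 0.021) that does not depend on the scaling. Sums weigh the most read genes most. RPS2 alone held 83645 of the 490082 small subunit counts in hypoxia and 83569 of 474233 in normoxia. The sums were not compared without RPS2, so the difference cannot be read as a shift of the whole subunit.

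Of the 8 members named for high values, 6 had an interval wholly above 0. RPL41, the smallest ribosomal protein, which sits between the subunits, had 18597 counts in hypoxia, against 16365 in normoxia (log2 ratio 0.09, interval 0.06 to 0.12). RPS27, a zinc-binding protein of the small subunit, had 12494 and 11159 counts (0.07, 0.03 to 0.11). RPL39, which lines the exit tunnel, had 10945 and 9935 counts (0.05, 0.01 to 0.09). RPS4X, the copy of this small subunit protein that the X chromosome carries, had 27224 and 24644 counts (0.05, 0.03 to 0.08), and RPS3A 16216 and 14762 (0.04, 0.01 to 0.08). The interval of RPL23, with 12692 and 11603 counts, began at 0.00026. The remaining members named for high values, RPS25 (10163 and 9300 counts) and RPL7L1 (4261 and 3830), had intervals that held 0. Under total count scaling the interval of RPL39 (0.037) and that of RPL23 (0.027) also held 0, and under upper quartile scaling that of RPL23 did.

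Of the 8 members named for low values, the 5 lowest by the interval bound nearest to 0 belong to the small subunit. RPS29, a zinc-binding protein of the subunit's head, had 7083 counts in hypoxia, against 7656 in normoxia (log2 ratio -0.20, interval -0.25 to -0.16). RPS21 had 8399 and 8869 counts (-0.17, -0.21 to -0.13). RPS28, at the exit of the mRNA channel, had 8168 and 8513 counts (-0.15, -0.20 to -0.11). These 3 had fewer raw counts in hypoxia although that library was the deeper one, as did RPS15, near the decoding site, with 16800 and 17231 counts (-0.13, -0.16 to -0.10). RPS2 had 83645 and 83569 counts, and its interval (-0.11 to -0.08) was the narrowest of any member. The large subunit genes among the 8 were RPL24, which bridges to the small subunit, with 9717 and 9798 counts (-0.10, -0.15 to -0.06), RPL13 with 32334 and 32488 (-0.10, -0.12 to -0.08) and RPL28 with 18761 and 18645 (-0.08, -0.11 to -0.05). With the length trend removed, the intervals of RPS15 (-0.026) and RPL24 (-0.0072) held 0, and RPS2 stood at -0.021.

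Set against each other within a library, these members were present in different proportions. There were 2.63 counts of RPL41 for each count of RPS29 in hypoxia and 2.14 in normoxia, a log2 difference of 0.30 (0.24 to 0.35). For RPS27 against RPS28 the ratios were 1.53 and 1.31 (0.22, 0.17 to 0.28). Such ratios are free of the scaling, and the pairs were chosen for their values.

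Members with a distinct place in the ribosome lay in the same range. The stalk, which recruits elongation factors, is formed by RPLP0, RPLP1 and RPLP2 on a base with RPL12. RPLP1 had 20314 counts in hypoxia and 20086 in normoxia (-0.08, -0.10 to -0.05), RPLP2 had 9404 and 9279 (-0.07, -0.11 to -0.03), and the intervals of RPLP0 (-0.02, -0.04 to 0.0031) and RPL12 (0.0023, -0.03 to 0.03) held 0. RPL5 and RPL11, which carry the smallest ribosomal RNA into the large subunit and bind MDM2 when assembly fails, were at -0.05 (-0.09 to -0.01) and -0.04 (-0.07 to 0.0021). RPS6, the phosphorylation substrate by which mTORC1 signalling is commonly read, had 9606 and 9143 counts (-0.02, -0.06 to 0.02). RPS27A, made as a fusion with ubiquitin, had 13502 and 13198 counts (-0.06, -0.09 to -0.03), and RPSA, known also as a laminin receptor, 34941 and 34200 (-0.06, -0.08 to -0.04). With the length trend removed, the intervals of RPL12 (0.093, 0.064 to 0.12) and RPLP0 (0.039, 0.015 to 0.062) lay wholly above 0. RPLP2 (0.034), RPL5 (0.016), RPL11 (0.029), RPS6 (0.029) and RPS27A (0.0023) had ratios above 0 with intervals that held 0. The intervals of RPLP1 (-0.018) and RPSA (-0.0015) also held 0.

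The 10 listed proteins of the exit tunnel and its rim had a median of -0.041, from -0.17 (RPL17, on few counts) to 0.05 (RPL39), with 5 intervals below 0 and 1 above. All 8 listed proteins of the mRNA channel had a ratio below 0, with a median of -0.049 and 5 intervals wholly below. Over all 82 members kept, 63 ratios (76.8%) were below 0 and 46.3% of intervals lay wholly below. Of 18 genes mutated in Diamond-Blackfan anaemia, an inherited failure of red cell production, 17 had a ratio below 0 and 11 an interval wholly below, with a median of -0.046. The other 64 members had a median of -0.025, with 46 below 0 and 27 intervals wholly below. With the length trend removed both medians lay above 0, at 0.011 for the anaemia genes and 0.018 for the others.

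Paralogs of ribosomal proteins, some of which can replace the parent protein in some tissues, were mostly read at low levels per length. RPS27L, a p53 target, had 6.92 FPKM in hypoxia and 6.54 FPKM in normoxia, 0.496% and 0.489% of its parent RPS27. The length used for RPS27L is 6110 bases, and by counts alone there were 0.0641 reads of RPS27L for each read of RPS27 in hypoxia and 0.0632 in normoxia. RPL26L1 reached 3.37% of RPL26 in hypoxia and 3.60% in normoxia, and RPL39L 3.12% and 3.55% of RPL39. RPL22L1 reached 13.0% and 11.7% of RPL22, and RPL7L1 18.1% and 17.4% of RPL7. RPL36AL, whose parent RPL36A was hardly read, is the exception among paralogs in lying above its parent.

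Their ratios between the conditions were imprecise. RPL22L1 had 600 counts in hypoxia and 526 in normoxia (0.10, -0.07 to 0.27), and its shift against RPL22 was 0.15 (-0.02 to 0.33). RPL39L had 639 and 659 counts, and against RPL39 it was lower by a log2 difference of -0.18 (-0.35 to -0.02), the only one of 5 paralog and parent pairs whose interval did not hold 0. RPL26L1 had 1110 and 1147 counts (-0.14, -0.26 to -0.02), RPS27L 801 and 705 (0.09, -0.06 to 0.24), and RPL36AL 2221 and 2254 (-0.11, -0.20 to -0.03).

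Gene length and count had to be considered, because ribosomal protein genes are short and highly read. The median length was 1114 bases over the members kept, against 4007 bases over all genes kept. Over the 10739 genes read at least 100 times in each library, the log2 ratio was higher by 0.036 for each doubling of length. Members of 1000 to 1500 bases had a median of -0.055 (21 genes), and non-members of that length -0.057 (566 genes). Members of 500 to 750 bases had -0.055 (18 genes) and non-members -0.068 (101 genes). Members under 500 bases had -0.035 (7 genes) and non-members -0.036 (29 genes). The remaining classes with members lay further apart, in either direction. Members of 750 to 1000 bases had -0.027 (8 genes) and non-members -0.071, and members of 1500 to 2500 bases -0.0081 (12 genes) and non-members -0.044. Members of 2500 to 5000 bases had -0.019 (10 genes) and non-members 0.0025, and members of 5000 to 10000 bases -0.055 (6 genes) and non-members 0.032. It is with this trend removed that the median over the members was 0.016. What was removed is a straight line over log2 length, fitted to those 10739 genes. The members themselves did not follow this length (Spearman rho = 0.014 over the 77 read at least 1000 times in each library). It is the gene length implied by FPKM, which for some members is long (7472 bases for RPS29 and 7573 for RPL37). A relation to the length of the mRNAs was not tested, and the length classes and the trend removal carry the same limit. Their SD over the 82 kept was 0.062 before the removal and 0.072 after.

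**Figure D3:**
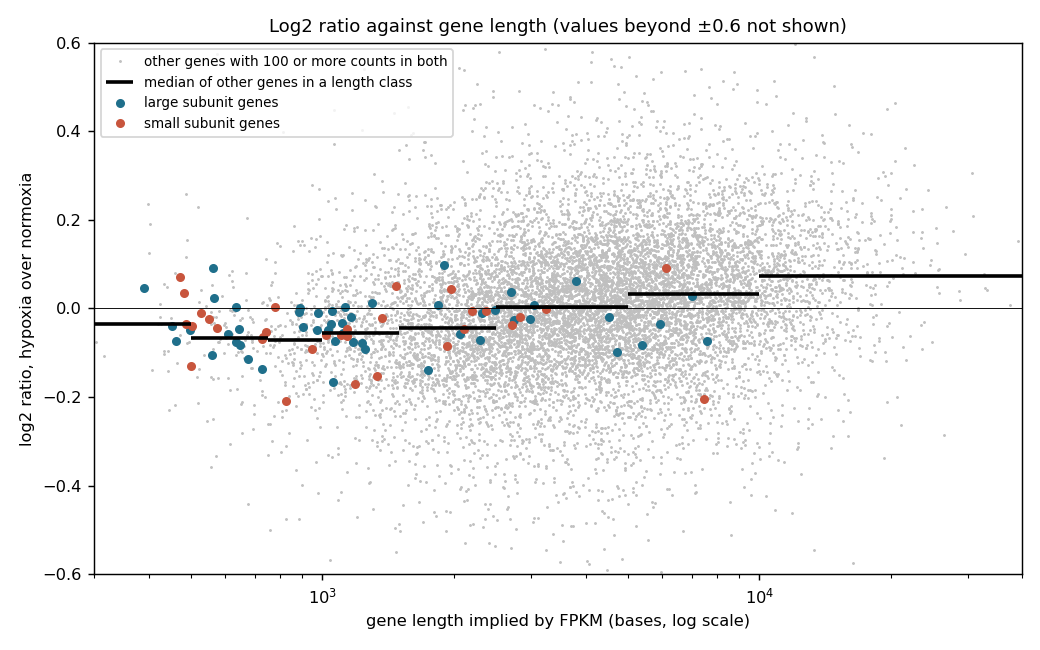
Log2 ratio of hypoxia over normoxia against gene length on a log axis, for ribosomal proteins of the large and small subunit and for other genes read at least 100 times in each library (grey); 49 of 10657 other genes lie outside the axes. Black bars, the medians of other genes by length class, lie at -0.068 for 500 to 750 bases and at 0.032 for 5000 to 10000 bases, and most members lie between -0.1 and 0.1.

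Genes of similar count and length were taken as all 3831 non-members between the members' 5th and 95th percentiles of both, that is, 42.2 to 1588 CPM and 483 to 5885 bases. Their median log2 ratio was -0.013, and the members' median lay 0.026 lower (a difference of -0.026). In this set 23.1% had an interval wholly below 0 and 16.1% wholly above. The set is still longer and less read than the members, with a median of 3118 bases and 90.3 CPM against 1114 bases and 678 CPM. The 305 non-members that were among the 10 nearest to any member had a median of -0.0020, with 32.8% of intervals wholly below 0 and 28.5% wholly above.

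The ratios of the members lay closer together than those of genes of similar count and length, but not than those of mitochondrial ribosomal proteins. Among genes read at least 1000 times in each library, the SD of the log2 ratio was 0.054 over 77 members, 0.12 over 3029 genes of similar count and length and 0.11 over 255 nearest genes. Counting error alone would give 0.021, 0.046 and 0.026 in these sets. With that removed, 0.050 was left for the members and 0.11 for each of the other sets. For 41 mitochondrial ribosomal proteins it was 0.051. Within the 77 members the ratio followed neither the gene length implied by FPKM (Pearson r = -0.06, Spearman rho = 0.014) nor count (r = 0.17, rho = 0.14). Over the 62 with a promoter the ratio did not follow the length of the pyrimidine run (r = 0.06, rho = -0.05). These correlations are across genes of the same pair of libraries and describe them only.

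Other genes whose mRNAs carry a TOP tract had a median just above 0, where the ribosomal proteins had one just below; the difference was not tested. The 22 listed TOP genes, which include translation factors, had a median log2 ratio of 0.014, with 9 intervals wholly above 0 and 5 wholly below. Over all genes kept, 15% lay wholly above and 14% wholly below, but the list is more highly read (median 536 CPM against 33.1 CPM). Over the 305 non-members nearest to the ribosomal proteins, with a median of 452 CPM, the shares were 28.5% and 32.8%. EEF1A1, the factor that brings aminoacyl-tRNA to the ribosome, had 126272 counts in hypoxia and 108595 in normoxia (0.12, 0.11 to 0.14). EIF4B (0.18, 0.14 to 0.22), PABPC1, the poly(A)-binding protein (0.14, 0.11 to 0.17), and VIM, the intermediate filament vimentin (0.18, 0.17 to 0.20), were also above 0, while EEF2, which moves the ribosome along, was at 0.0079 (-0.0053 to 0.02). The lowest was EIF3H at -0.07 (-0.16 to 0.0078). FAU was at -0.07 (-0.12 to -0.01), and RACK1, a scaffold on the small subunit, at -0.03 (-0.06 to -0.01), both within the range of the members. The list is longer than the members, with a median of 3366 bases, and with the length trend removed its median was 0.025, against 0.016 for the members.

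Genes that make ribosomes gave a mixed picture. Of 45 ribosome biogenesis genes, 10 had an interval wholly below 0 and 4 wholly above, with a median of -0.040. Over all genes kept, 14% had an interval wholly below 0 and 15% wholly above. NOC4L was lowest at -0.28 (-0.44 to -0.11), NOP56, a box C/D snoRNA-bound protein, had 6230 counts in hypoxia and 6542 in normoxia (-0.16, -0.21 to -0.11), and WDR12 was highest at 0.24 (0.11 to 0.37). The 14 genes of RNA polymerase I and its factors, which transcribe ribosomal RNA, had a median of 0.069 with 3 intervals on each side, from TAF1D (-0.25, -0.38 to -0.12) to POLR1G (0.26, -0.06 to 0.58). The 77 mitochondrial ribosomal proteins had a median of -0.029, with 11 intervals below 0 and 2 above, against 14% and 15% of all genes kept. With the length trend removed their median was 0.017, that of the biogenesis genes -0.0082 and that of the RNA polymerase I genes 0.048. The mitochondrial ribosomal proteins ranged from MRPS28 at -0.47, on 43 and 56 counts, to MRPL39 at 0.21.

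**Figure D4:**
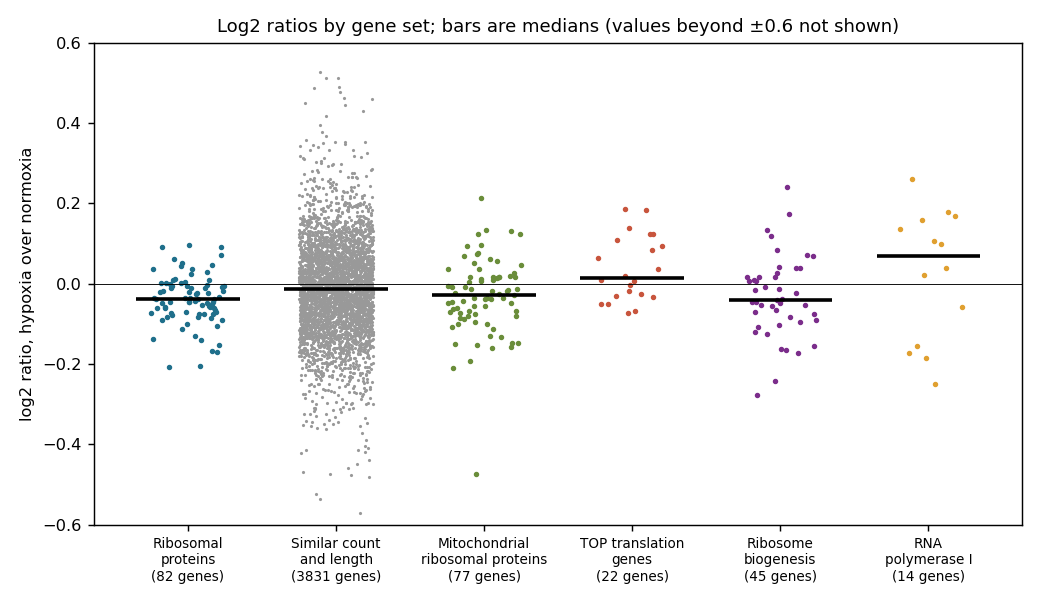
Log2 ratio of hypoxia over normoxia for each gene (points) and the median (bar) of ribosomal proteins, genes of similar count and length, mitochondrial ribosomal proteins, TOP translation genes, ribosome biogenesis genes and RNA polymerase I genes; 16 of 3831 genes of similar count and length lie outside the axis. The ribosomal proteins form a narrow band with a median of -0.039, and the median of the TOP genes lies at 0.014.

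Among 16 regulators of TOP mRNAs, mTORC1 and ribosome supply, the highest was DDIT4, an inhibitor of mTORC1, with 2793 counts in hypoxia against 1452 in normoxia, the log2 ratio being 0.85 (0.76 to 0.94). The lowest was MYC, a transcription factor known to drive ribosomal protein genes, with 16870 and 19467 counts (-0.30, -0.33 to -0.27). LARP1, which binds TOP tracts, was at 0.14 (0.08 to 0.19) and TSC1 at 0.30 (0.17 to 0.43). The translation repressor EIF4EBP1, with 913 counts in hypoxia and 1004 in normoxia, was at -0.23 (-0.36 to -0.10). Its relative EIF4EBP2, with 3332 and 2763 counts, went the other way, at 0.18 (0.10 to 0.25). Over the list 5 intervals lay wholly above 0 and 4 wholly below, with a median of -0.0034. The shares over all genes kept, whose median gene has fewer counts and a wider interval, were 15% above and 14% below. Whether these values bear on the ribosomal protein values was not tested.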

How the data were processed

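RNA-seq was read from 1 hypoxia and 1 normoxia library, and the miRNA libraries of the series were not used. Per the submitters' processing notes, the tools were HISAT2, HTSeq, Cufflinks, Bowtie and Trimmomatic on GRCh38, with no version or role; the sources used here do not give whether counting used strand. The authors deposited whole-number read counts per gene. The FPKM that the authors deposited equal these counts per table total and per length, and lengths were derived from them. Depth was 18943320 counts in hypoxia and 17643836 in normoxia, where 1 read equals 0.0530 and 0.0565 CPM. Counts were scaled with TMM in edgeR 4.0.16 (R 4.3.3), and the alternatives were upper quartile, total count and DESeq2 1.42.0 scaling, log2 FPKM (pseudocount 1 or 0.1), filters at 5 CPM or none, and removal of the length trend. Ratios carry the exact conditional (Clopper-Pearson) 95% counting interval, and differences between ratios an approximate one (Python 3.11.15, numpy 2.4.6, pandas 2.3.3, scipy 1.17.1, matplotlib 3.10.9). The interval procedure was tested on simulated data. With 1 library per group no p-value was computed. Named members were those with the most extreme interval bound on the side of 0 (8 in each direction), the 3 with most and fewest counts, paralogs with their parents, the stalk, RPL5, RPL11, RPS6 and RPS27A, and in related lists the extremes. Others were named after their values were seen. The members and lists were chosen with earlier results of these data known. Gene positions, pseudogene symbols and promoters are from RefSeq (GRCh38.p14), in which all 84 members matched by Entrez identifier. Some genes are counted in the totals but not reported here by name.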

Additional observations from a re-analysis of the deposited data

How the results depend on the processing

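With 1 library per condition these values describe 2 cultures, and offsets of a few hundredths on the log2 scale depend on what they are set against. No paired analysis was possible because each group has 1 library, and for the same reason no library could be left out. A value was taken as kept when it moved by less than 0.036, the median half-width of the members' counting intervals, a named gene when it moved within its own interval, and a count when it stayed within 1.5 times. That margin is nearly the size of the member median (-0.039). It is larger than the differences from genes of similar count and length (-0.026) and between subunits (0.0040), so being kept says little about these values. A change of scaling shifts all genes alike and cannot alter a difference between medians. The FPKM settings nearly repeat total count scaling. DESeq2 size factors, upper quartile and total count scaling, both FPKM pseudocounts, no filter and a filter at 5 CPM kept every value followed, with a member median between -0.049 (total counts and FPKM) and -0.038 (DESeq2), 36 (DESeq2) to 47 (total counts) members wholly below 0 and 4 (total counts) to 6 wholly above. Single calls of named members at the edge still moved: RPL22 under DESeq2, RPL23 under upper quartile and total counts, and RPL39 under total counts came to hold 0. In the other direction, RPL11 under upper quartile and total counts and RPLP0 under total counts came to lie wholly below 0. FPKM gave no interval counts. Leaving out the paralogs, members under 1000 counts or, chosen after seeing the data, members with a readthrough gene also kept them.
Removing the length trend turned the member median to 0.016 and its difference from genes of similar count and length to 0.016, and gave 11 members wholly below 0 and 27 wholly above. It turned RPL26 to 0.030, RPLP2 to 0.034, RPL5 to 0.016 and RPS27A to 0.0023, and moved 18 of the other 31 named members, among which RPLP0 (0.039), RPL11 (0.029) and RPS6 (0.029), whose intervals held 0 before, also changed sign. Centred on genes of similar count and length, chosen after seeing the data, 10 members lay wholly above 0 and 28 wholly below. The ratio of the ribosomal protein share of counts (hypoxia over normoxia, 0.968) was 0.984 per length. The table holds no mitochondrially encoded genes, so the share without them was not run. The cause of the length trend was not tested.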

Other observations

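The 84 genes lie on 21 chromosomes, and 29 of them hold at least 1 snoRNA gene within their span in the RefSeq table, 60 snoRNA genes in all. Chromosome 19 carries the most, with 12 members. Their median log2 ratio was -0.059, the lowest of the 12 stood at -0.15 (RPS28), and 11 of the 12 intervals lay wholly below 0. The interval lay wholly below 0 for 46.3% of the 82 members kept. It did so for 14% of all genes kept, whose median gene has fewer counts and a wider interval. The 1013 other genes kept on chromosome 19 had a median of -0.055. On chromosome 3, by contrast, 9 members had a median of -0.036 and the 688 other genes 0.025. The split by chromosome was chosen after the values were seen and was not tested.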
